A study of Mus musculus with 7 samples.

Results

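The expression of 39 genes that process the NOTCH receptors, add sugars to them, move and degrade them or their ligands, and carry out or report their signal was described in WT and *Jag2sm* muscle stem cells (MuSCs). The members were given by name, without the receptors and the canonical ligands, and each was found by its Ensembl identifier among the 56748 genes counted in every library. Nanopore sequencing of unamplified cDNA gave 7 libraries, 3 of WT and 4 of *Jag2sm* MuSCs. The *Jag2sm* mice are homozygous for a hypomorphic missense allele of *Jag2*, which encodes a NOTCH ligand, although the sample labels write the genotype as *Jag2*-/-. The mice of both genotypes were adults, and the allele is carried by all cells of the body. MuSCs were taken from dissociated hindlimb muscle by magnetic beads, as integrin α7-positive cells left after removal of CD31-, CD45- and Sca1-positive cells, and the same growth medium with serum and bFGF is given for all 7 samples. The labels do not say how many mice gave each library or how long the cells were grown, so p-values measure the spread between these libraries.

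NOTCH receptors are cut by furin on their way to the surface and carry O-linked sugars that set which ligands they bind. When a ligand on a neighboring cell is pulled in by endocytosis, ADAM proteases and then γ-secretase cut the receptor, and its freed intracellular domain enters the nucleus, where it joins RBPJ and a Mastermind protein to switch on genes of the Hes and Hey families. In muscle this signal is known for holding MuSCs in the undifferentiated state.

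The libraries differed in depth and in the share of reads used. Reads counted on genes numbered 187834, 1657016 and 1159203 in WT replicates 1, 2 and 3. The *Jag2sm* replicates 1 to 4 had 671660, 1421058, 1937581 and 1223863. Of these, between 395 and 3069 reads per library fell on the 39 members, the fewest in WT replicate 1. In that library 45.1% of the aligned reads matched no gene, and in the others this share was 20.8% to 25.7%. Reads that could not be aligned made up 50.8%, 46.7% and 46.0% of *Jag2sm* replicates 1, 2 and 4, but 3.07% of *Jag2sm* replicate 3 and 2.44% to 3.24% of the WT libraries. Levels are given below as CPM, read counts scaled to a common library size,, and a count of 0 allows up to 17.3 CPM in WT replicate 1 and between 1.48 and 4.24 CPM in the other libraries, counting error only.

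Labelled as MuSCs, the cells expressed *Pax7*, *Myf5* and *Myod1*, transcription factors of the myogenic lineage, in all 7 libraries. *Pax7* had 28.8, 95.7 and 80.6 CPM in WT and 100.4, 129.2, 172.0 and 124.7 CPM in *Jag2sm* libraries. *Chodl* and *Calcr*, markers of quiescent MuSCs, had 1 read each in all libraries together. No gene of the endothelial, fibro-adipogenic, immune and glial marker lists had enough reads to be tested, and *Kdr*, *Esam*, *Lum*, *Dpt*, *Ptprc*, *Adgre1*, *Lyz2*, *Cd3e* and *C1qa* had 0 counts throughout. The summed level of these 4 lists was at most 21.4 CPM for any list in any library, and their most abundant genes were *Tek*, *Ly6a*, *Cd68* and *Mbp*.

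Of the 39 members, 31 had enough reads to be tested, and 1 of these, *Hes6*, was called. It was 2.82-fold lower in *Jag2sm* MuSCs, and none of the 31 was called higher. Calls were made with edgeR's quasi-likelihood test at a Benjamini-Hochberg adjusted p under 0.05 over all 9489 tested genes, of which 6.26% were called, 1.42% higher and 4.84% lower. The members' count did not exceed this background. An unadjusted p under 0.05 was found for 5 of the 31 members, 1 higher and 4 lower, where 19.7% of all tested genes had one. Likewise, *Hes6* was the only member called with the batch as a block (5.95% of all genes called) and in DESeq2 (6.35%). Batch 4 held *Jag2sm* replicate 4 alone, so the fit with the block compared the genotypes within batches 1 to 3 only. Lower calls made up 77.3% of all calls, and 61.4% when libraries were scaled by their size alone. The median log2 fold change (*Jag2sm* minus WT) of the 31 members was -0.16, against 0.05 for all tested genes, and 20 of the 31 values were negative. That majority was not kept under 3 settings: scaling by library size alone gave 15 negative values, leaving out WT replicate 1 gave 16 of 32, and a minimum of 10 counts in every library gave 6 of 13. Scaling by library size alone moved the median of all genes to 0.21, and relative to that median the members lay at -0.21, as they did with TMM scaling. Without WT replicate 1, the shallowest library, the members' median was -0.02, or -0.05 relative to that of all genes. Over all settings the relative value ran from -0.36 (counts thinned to the smallest library, 10 members) to -0.0051 (DESeq2). The DESeq2 medians were taken without the filter on low counts, over all 39 members and 25181 genes. *Hes6* was the one member called without WT replicate 1 as well, among 32 tested.

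**Figure D1:**
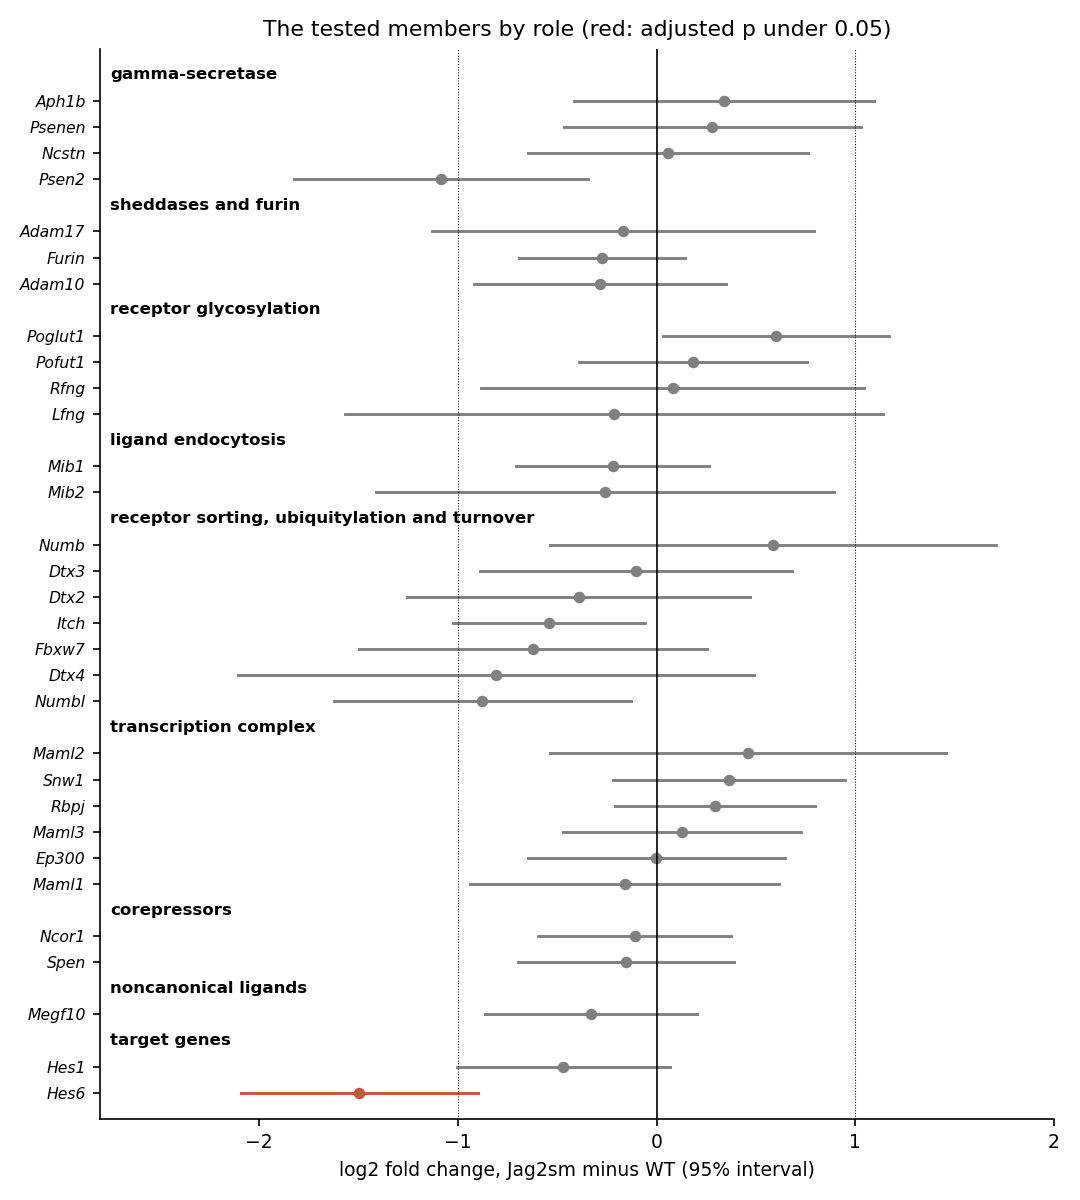
Log2 fold change (*Jag2sm* minus WT, horizontal axis) of each of the 31 tested members, ordered by role, where points are estimates, lines are 95% intervals and dotted lines mark a change of 2-fold. The interval of *Hes6* (red), from -2.09 to -0.90, belongs to the only member with an adjusted p under 0.05, and 14 of the 31 intervals lie between the dotted lines.

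A p above the threshold does not show that a gene was equal in both genotypes, so the intervals were read for each role. For 14 of the 31 members, the 95% interval of the fold change lay within 2-fold in both directions. That was the case for 45.0% of all tested genes. It held for 5 of 6 tested genes of the transcription complex and for both corepressors, but for 1 of 7 genes of receptor sorting, ubiquitylation and turnover. These roles also differed in depth. Over all libraries, tested genes had 143 to 1011 reads in the complex, 561 to 1281 in the corepressors and 72 to 265 in the sorting role. The part of depth in this contrast was not tested. Some intervals were wide, such as that of *Dtx4*, a Deltex ubiquitin ligase, which ran from -2.11 to 0.49. *Dtx4* had 52 reads in WT and 58 in *Jag2sm* libraries.

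Reads of 21 members can come from another gene, because their exons overlap exons of a neighbor in GENCODE M39, 3 on the same strand and 19 on the opposite strand. The strand setting of the counting is not given in the sources used here, so these reads cannot be told apart.

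*Hes6* encodes a basic helix-loop-helix protein that is known to bind HES1 and oppose it and to promote differentiation of myoblasts. It is listed here with the targets, although it is not regarded as a typical gene switched on by NOTCH. The gene lies on the minus strand of chr1:91339204-91342103 (GRCm39), and its exons overlap the opposite-strand gene *Gm57139*. Its level was 472.7, 532.6 and 537.7 CPM in WT libraries. In *Jag2sm* libraries it was 173.9, 171.4, 119.7 and 267.4 CPM. The genotypes did not overlap, and the highest *Jag2sm* library, replicate 4, stayed well under the lowest WT library. The means were 514 ± 36.2 CPM (SD, n = 3) and 183 ± 61.5 CPM (SD, n = 4), from 1473 and 942 reads. The log2 fold change was -1.50 ± 0.27 (SE; edgeR quasi-likelihood test, Benjamini-Hochberg adjusted p = 0.0106). A two-sided exact permutation test of log2 CPM gave p = 0.0286, the smallest that the 35 splits of 7 libraries allow.

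The labels give a batch number equal to the replicate number, shared by both genotypes for numbers 1 to 3. The sample titles give a replicate number only, and what a batch was is not stated. Within batches 1, 2 and 3, *Hes6* was lower in *Jag2sm* by 1.43, 1.63 and 2.15 on the log2 CPM scale. In batch 3 the share of unaligned reads was 2.86% in the WT and 3.07% in the *Jag2sm* library, where *Jag2sm* replicates 1 and 2 of the other batches had 50.8% and 46.7%. The part of unaligned reads in the level of *Hes6* was not tested. *Hes6* was called under all 15 alternative settings, with log2 fold changes between -1.76 and -1.33. When single libraries were left out, its adjusted p in edgeR's quasi-likelihood test ranged from 0.00591 to 0.0496, the highest without *Jag2sm* replicate 2.

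Genes of differentiating muscle were lower in the same libraries as *Hes6*. In a list of 12 such genes, 11 were tested and all 11 fell in *Jag2sm* MuSCs, with a median log2 fold change of -3.24 (10 of 11 called with the batch as a block). Fits that each left out 1 library called 7 to 11 of them, the fewest without *Jag2sm* replicate 2. This direction in these libraries was known when the list was written. *Myog*, the myogenic regulator that opens differentiation, had 2894, 2222 and 2851 CPM in WT against 711, 387, 110.4 and 906 CPM in *Jag2sm* libraries. The summed level of the 12 genes, of which *Acta1*, skeletal muscle α-actin, was the most abundant, was 37439, 22348 and 25569 CPM in WT. It was 4282, 2753, 760 and 5946 CPM in *Jag2sm* libraries. None of the 12 genes was at 0 in all libraries. Within the *Jag2sm* libraries, *Hes6* was highest in replicate 4, followed by replicates 1, 2 and 3, and 7 of the 12 genes had that same order. Replicate 3, with the lowest *Hes6*, was also the lowest for 11 of the 12, and for *Ckm*, with 3 reads in *Jag2sm* libraries, it was tied with replicate 2 at 0. Within WT the order differed, as replicate 1 had the highest sum of the 12 genes and the lowest *Hes6*. The part of differentiating cells in the level of *Hes6* was not tested, and in bulk RNA fewer cells of a type and less RNA per cell cannot be told apart.

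**Figure D2:**
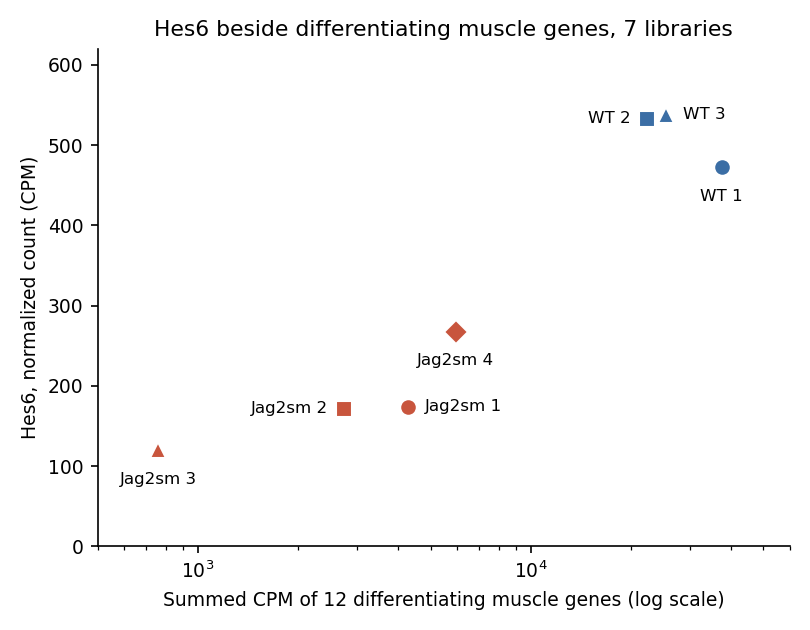
Level of *Hes6* (CPM, vertical axis) against the summed CPM of 12 differentiating muscle genes (horizontal axis, log scale), with 1 point per library, WT in blue and *Jag2sm* in red. The 3 WT libraries sit at 472.7 CPM of *Hes6* or more, and *Jag2sm* replicate 3, with the lowest sum of 760 CPM, also has the lowest *Hes6*.

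Other marker lists were read as well, and some of their genes were called. Of 8 interferon response genes, 4 were called higher in *Jag2sm* MuSCs (8 of 8 with the batch as a block or without *Jag2sm* replicate 3, 1 of 8 without WT replicate 1, and 0 of 8 without WT replicate 2 or 3). Without *Jag2sm* replicate 1, 2 or 4, 3 of the 8 genes passed the filter on low counts, of which 2, 0 and 2 were called. Their summed level was 11.5, 17.5 and 18.0 CPM in WT and 471, 2459, 42.4 and 1070 CPM in *Jag2sm* libraries, with *Isg15* as the most abundant gene. The lowest *Hes6* was measured in *Jag2sm* replicate 3, the one of these 4 libraries with the least interferon signal. None of 10 cell cycle genes was called (*Rrm2* most abundant). Their summed level was 467, 1394 and 1684 CPM in WT and 1579, 1601, 2027 and 1466 CPM in *Jag2sm* libraries, with WT replicate 1 far under the others. The median log2 fold change was 0.44, and 0.16 without WT replicate 1. Among muscle stem cell markers 1 of 8 tested was called, *Des*, an intermediate filament gene of muscle, which had a log2 fold change of -1.63 (edgeR quasi-likelihood test, Benjamini-Hochberg adjusted p = 0.0244, or 0.0596 with the batch as a block). That call was also lost without *Jag2sm* replicate 1 or 2. Of the mural list 2 of 6 genes were tested, and *Abcc9* was called lower, whereas *Rgs5*, its most abundant gene, had 11.5, 12.9 and 14.2 CPM in WT and 644.8, 29.7, 40.4 and 25.3 CPM in *Jag2sm* libraries. All 4 *Jag2sm* libraries were above WT, and *Rgs5* was called higher only in the fit without *Jag2sm* replicate 1, among those that left out 1 library or none. *Scx*, the most abundant tenocyte marker and the only one tested, was called lower with a log2 fold change of -1.34, but not without WT replicate 2 or 3 or *Jag2sm* replicate 1 or 2. The part of these lists in the members' values was not tested.

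The remaining 4 target genes were read less often. *Hes1*, the repressor most often used as a readout of NOTCH activity (chr16:29882134-29886643, plus strand), had 69.2, 85.3 and 63.5 CPM in WT libraries. In *Jag2sm* libraries it had 72.1, 46.3, 41.4 and 57.1 CPM. The genotypes overlapped through *Jag2sm* replicate 1, which was above 2 of the WT libraries. The means were 72.7 ± 11.3 (n = 3) and 54.2 ± 13.6 CPM (n = 4), and the log2 fold change of -0.47 had a 95% interval from -1.003 to 0.07 (edgeR quasi-likelihood test, Benjamini-Hochberg adjusted p = 0.318). With single libraries left out, the value ran from -0.61 (without *Jag2sm* replicate 1) to -0.28 (without WT replicate 2). The exact permutation test of *Hes1* gave p = 0.143. Within the batches its log2 difference was 0.06, -0.86 and -0.60.

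*Heyl*, a further repressor of this family, had 0, 9.70 and 20.9 CPM in WT and 0, 2.76, 4.43 and 5.71 CPM in *Jag2sm* libraries, from 37 and 20 reads. The genotypes overlapped, since replicate 1 of each genotype had no read, and *Heyl* was too low to pass the filter on low counts. Without that filter it was called lower (edgeR quasi-likelihood test, log2 fold change -1.80, Benjamini-Hochberg adjusted p = 0.0237). In DESeq2 its adjusted p was 0.378, it was 0.103 in edgeR without WT replicate 1, and the exact permutation test gave p = 0.486. *Hey1* had 5.76, 7.76 and 3.79 CPM in WT and 1.41, 4.84, 1.97 and 1.63 CPM in *Jag2sm* libraries. Those levels rest on 17 and 14 reads, overlapped through *Jag2sm* replicate 2, and gave an exact permutation p = 0.0857. *Nrarp*, a feedback inhibitor of the NOTCH transcription complex, had a single read, in *Jag2sm* replicate 1, so that no difference was detectable at this depth.

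**Figure D3:**
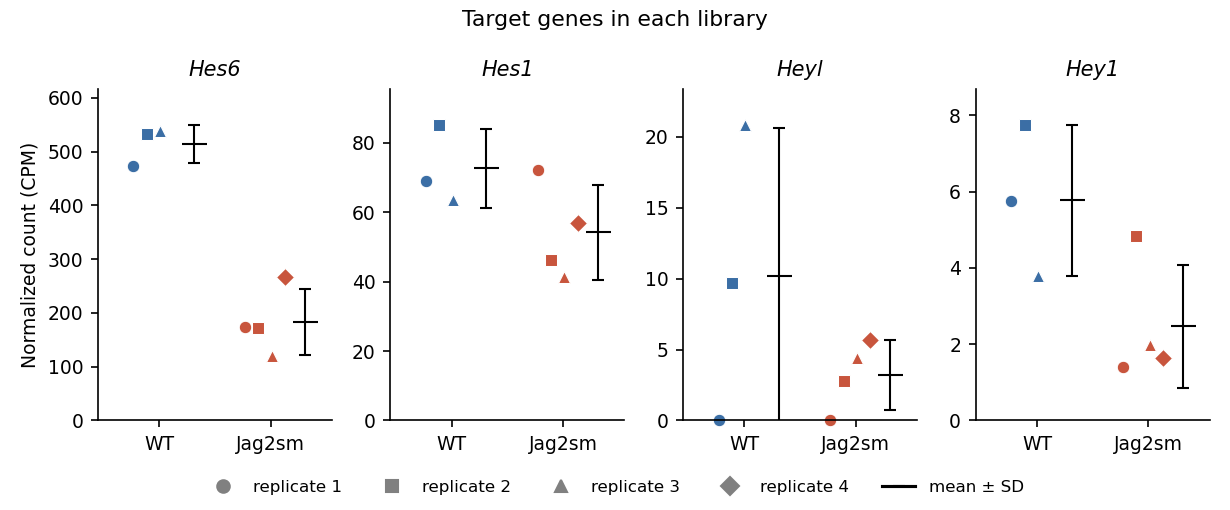
Normalized count (CPM, vertical axis, a separate scale from 0 for each gene) of *Hes6*, *Hes1*, *Heyl* and *Hey1* in each WT (blue) and *Jag2sm* (red) library, with marker shapes for replicates and black bars for mean ± SD, cut at 0. Only for *Hes6* do all 4 *Jag2sm* points lie under all 3 WT points.

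*Hes6* was the only member for which a promoter is printed, because it alone was called among the tested members. RefSeq (GRCm38.p6, another build than that of the counts) gives 2 start sites. The 250 bases before the outer one, chr1:91414039-91414288 on the minus strand, are written 5′ to 3′ with E-boxes in capitals (CANNTG, the same on both strands, a motif bound by MYOD, MYOG and many other helix-loop-helix proteins).
Hes6 promoter: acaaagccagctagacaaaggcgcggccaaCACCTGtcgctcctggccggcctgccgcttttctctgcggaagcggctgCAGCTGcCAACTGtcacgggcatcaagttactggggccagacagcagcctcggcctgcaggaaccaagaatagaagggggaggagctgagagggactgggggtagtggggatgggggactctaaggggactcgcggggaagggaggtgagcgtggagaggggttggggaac
The 3 E-boxes begin at positions -220, -171 and -164, counted back from -1 at the base before the start, and the 250 bases before the inner start hold 1. At least 1 E-box was found in 66.2% of the 32851 windows of this length and 3 or more in 12.2%. Neither *Hes6* window holds TGGGAA or TTCCCA, the core letters bound by RBPJ on either strand, which 21.6% of all windows hold. Of the 39 members, 29 have such windows (42 in all), and E-boxes were found in 52.4% and the RBPJ letters in 26.2% of them. *Mfng*, *Mib1*, *Itch*, *Dtx3*, *Dtx4*, *Snw1*, *Megf10*, *Hes1*, *Hey1* and *Heyl* have no entry in the table.

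Apart from *Hes6*, 4 members had levels in which the genotypes did not overlap, and in all 4 the difference did not pass the test. With *Hes6*, that makes 5 of 31 members (16.1%), 1 higher and 4 lower, where 22.5% of all tested genes had no overlap, 10.3% higher and 12.2% lower. The members' share was thus under that of all genes. In each of these 4 genes the exact permutation test gave p = 0.0286, the smallest possible. The genes were named because their genotypes did not overlap, which by itself puts this p at or near its minimum. It is therefore no separate evidence.

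*Psen2*, which encodes presenilin 2, a catalytic subunit of γ-secretase (chr1:180054569-180091003, minus strand), had 28.8, 18.7 and 16.1 CPM in WT and 11.3, 9.67, 6.90 and 8.97 CPM in *Jag2sm* libraries. These levels rest on 51 and 47 reads, with 5 in WT replicate 1, and all 4 *Jag2sm* libraries lay under the WT libraries. Its log2 fold change was -1.09 with a 95% interval from -1.83 to -0.35 (edgeR quasi-likelihood test, Benjamini-Hochberg adjusted p = 0.0880), and -0.98 without WT replicate 1. In the 3 batches the difference of log2 CPM was -1.23, -0.85 and -1.05.

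*Numbl* encodes a relative of Numb, an adaptor that counteracts NOTCH (chr7:26957858-26981580, plus strand). It had 86.5, 31.7 and 43.6 CPM in WT libraries, against 31.1, 19.3, 23.2 and 28.5 CPM in *Jag2sm* libraries. The WT value of replicate 1 stood far above the other two, and the gap between the genotypes was narrow. Its log2 fold change was -0.88 (95% interval -1.62 to -0.13; edgeR quasi-likelihood test, Benjamini-Hochberg adjusted p = 0.175) and shrank to -0.58 when WT replicate 1 was left out. Exons of *Numbl* overlap *Gm44641* on the same strand and *Gm15567* on the other.

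*Itch*, a ubiquitin ligase that marks NOTCH for degradation (chr2:154975388-155069532, plus strand), had 34.6, 42.0 and 40.8 CPM in WT and 26.9, 24.9, 30.1 and 28.5 CPM in *Jag2sm* libraries. The libraries of each genotype were close to each other, although WT replicate 1 had only 6 reads of *Itch*. The log2 fold change was -0.54, with a 95% interval from -1.02 to -0.06 (edgeR quasi-likelihood test, Benjamini-Hochberg adjusted p = 0.197).

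*Poglut1*, which adds O-glucose to the EGF repeats of NOTCH (chr16:38343557-38370629, minus strand), was the one of the 4 with higher levels in *Jag2sm* libraries. It had 17.3, 32.3 and 21.8 CPM in WT and 43.8, 37.3, 41.9 and 35.1 CPM in *Jag2sm* libraries. WT replicate 2 came within a few CPM of the lowest *Jag2sm* library, and the level in WT replicate 1 rests on 3 reads. The log2 fold change was 0.60, with a 95% interval from 0.03 to 1.17 (edgeR quasi-likelihood test, Benjamini-Hochberg adjusted p = 0.224). None of these 4 genes was called under any of the alternatives that tested it.

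**Figure D4:**
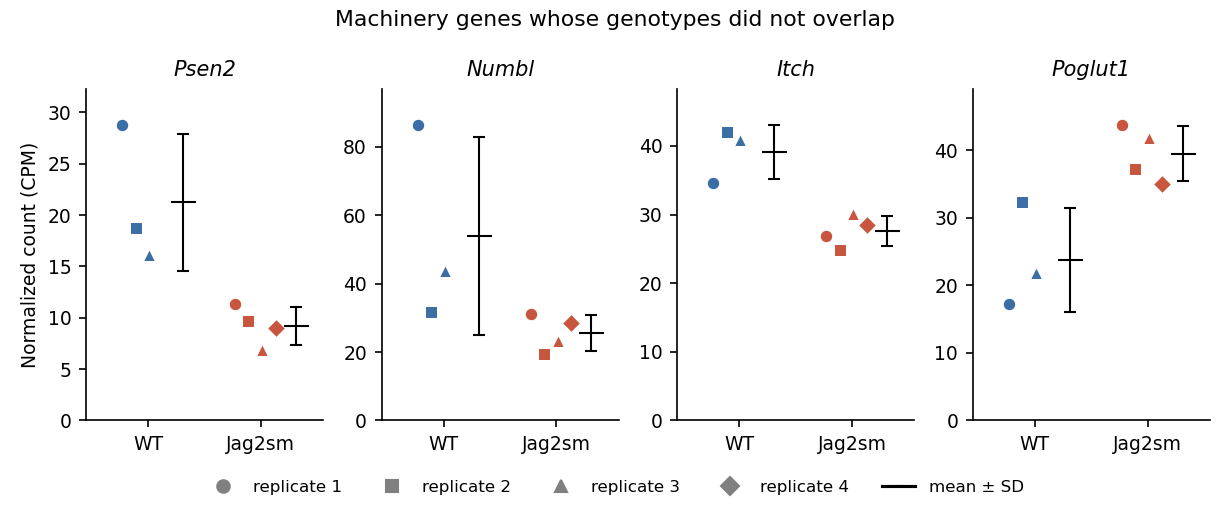
Normalized count (CPM, vertical axis, a separate scale from 0 for each gene) of *Psen2*, *Numbl*, *Itch* and *Poglut1* in each WT (blue) and *Jag2sm* (red) library, with marker shapes for replicates and black bars for mean ± SD. The genotypes do not overlap in any of the 4 panels, and WT replicate 1 (circle) is the highest library in *Psen2* and *Numbl*. That library had 5, 15, 6 and 3 reads of *Psen2*, *Numbl*, *Itch* and *Poglut1*.

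In γ-secretase, the protease that makes the last cut, 4 of 5 genes were tested and none was called. Their median log2 fold change was 0.17, and with single libraries left out it ran from -0.022 (without WT replicate 2) to 0.27 (without WT replicate 3). Beside *Psen2* at the lower end, *Aph1b*, a scaffold subunit, had the highest value at 0.34. *Ncstn* (nicastrin) and *Psenen*, the other tested subunits, had 0.06 and 0.28. *Aph1a*, the other form of that scaffold, had 4 reads in WT and 14 in *Jag2sm* libraries and was not tested. None of the 3 proteases that cut the receptor outside the membrane was called. *Adam10* had a log2 fold change of -0.29, *Adam17* one of -0.17 and *Furin* one of -0.27, whose 95% interval ran from -0.69 to 0.14.

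Of the genes of receptor glycosylation, 4 of 5 were tested and none was called. Their median log2 fold change was 0.13, between 0.095 (without WT replicate 3) and 0.26 (without WT replicate 1) when single libraries were left out, and -0.035 in DESeq2, which fitted all 5. Beside *Poglut1* at the upper end, *Pofut1*, which adds O-fucose, had 0.18. The Fringe genes, whose products lengthen that fucose, had few reads. *Lfng* had 35 and 53 reads and the lowest log2 fold change, -0.22, with a 95% interval from -1.57 to 1.14 that leaves a change of more than 2-fold in either direction within it. *Rfng* had 0.08, but ran from -0.46 to 0.46 when single libraries were left out, and was at -0.035 both with the batch as a block and in DESeq2. *Mfng* had 1 read in all 7 libraries.

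For ligand endocytosis, the ubiquitin ligases *Mib1* and *Mib2*, which set off the uptake of ligands, had log2 fold changes of -0.22 and -0.26 and were not called. *Mib1* was at 0.034 without WT replicate 2, and *Mib2* at 0.014 without *Jag2sm* replicate 3. *Neurl1b*, a further ligase of this kind, had 2 reads in all. In receptor sorting, ubiquitylation and turnover, none of 7 genes was called. The median log2 fold change there was -0.54 and 6 of 7 values were negative, or 5 of 7 both with library size alone and without WT replicate 1. The exception was *Numb* at 0.59, from 18 and 54 reads. Its value was 0.09 without WT replicate 3 and 1.09 without WT replicate 2, and it was tested in 5 of the 7 fits that left out 1 library. *Fbxw7*, which directs the intracellular domain to degradation, had -0.62 with an interval from -1.50 to 0.25, and *Dtx2* and *Dtx3* had -0.39 and -0.10.

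In the transcription complex 6 of 7 genes were tested and none was called. The median log2 fold change was 0.21, but 0.016 without WT replicate 3, where 3 of the 6 values were negative. *Rbpj*, its DNA-binding protein, had 74.9, 105.4 and 130.9 CPM in WT and 154.1, 142.3, 117.8 and 116.6 CPM in *Jag2sm* libraries. The ranges overlapped, and the log2 fold change was 0.29 with a 95% interval from -0.21 to 0.80. The Mastermind coactivators ran from *Maml2* at 0.46 through *Maml3* at 0.13 to *Maml1* at -0.16, a value that turned positive with library size alone, with at least 10 counts in every library and without WT replicate 1. *Snw1*, a cofactor of the complex, had 0.36, and the acetyltransferase gene *Ep300* 0.00. *Kat2b*, another acetyltransferase gene, had 13 and 18 reads and was not tested.

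The corepressors *Ncor1* and *Spen*, which hold RBPJ sites silent without a signal, had log2 fold changes of -0.11 and -0.15, and both turned slightly positive with library size alone, with at least 10 counts in every library and without WT replicate 1. With counts thinned to the smallest library they were -0.45 and -0.70, and were not called there either. With TMM scaling of all reads and libraries, both 95% intervals lay within 2-fold. Of the noncanonical ligands, *Megf10*, an EGF-repeat membrane protein of MuSCs, had 265.2, 202.3 and 193.5 CPM in WT against 165.4, 194.9, 120.7 and 207.9 CPM in *Jag2sm* libraries. The ranges overlapped, and its log2 fold change of -0.33 had an interval from -0.87 to 0.20. *Dner* had 11 and 4 reads and was not tested.

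For comparison, 53 other genes of the pathway, among them the receptors and canonical ligands, were read in the same fit. Of these, 31 were tested, with 1 called higher and 1 called lower and a median log2 fold change of 0.03. *Jag2* itself, altered by a missense allele and so no check of the labels by its level, had 80.7, 113.8 and 115.7 CPM in WT and 42.4, 78.8, 71.9 and 77.4 CPM in *Jag2sm* libraries. The genotypes did not overlap, but the log2 fold change of -0.64 did not pass the test (edgeR quasi-likelihood test, Benjamini-Hochberg adjusted p = 0.166).

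*Notch2*, the receptor gene with the most reads here, was 34.6, 41.4 and 36.0 CPM in WT and 69.3, 77.4, 92.1 and 60.3 CPM in *Jag2sm* libraries. It rose with a log2 fold change of 0.98 (edgeR quasi-likelihood test, Benjamini-Hochberg adjusted p = 0.0294). With the batch as a block the adjusted p was 0.0514, and the call was kept in 3 of 7 fits that each left out 1 library: it was lost without WT replicate 2 (adjusted p = 0.0916), WT replicate 3 (0.159), *Jag2sm* replicate 2 (0.0876) and *Jag2sm* replicate 3 (0.0556). *Neurl1a*, a ubiquitin ligase of the Neuralized family like the scarcely read *Neurl1b*, had 328.6, 73.0 and 67.3 CPM in WT and 18.4, 6.22, 8.87 and 13.0 CPM in *Jag2sm* libraries. All *Jag2sm* libraries were far under the WT libraries, of which replicate 1 was the highest. It fell by 3.59 on the log2 scale (edgeR quasi-likelihood test, Benjamini-Hochberg adjusted p = 0.00737) and had a log2 fold change of -2.70 without WT replicate 1, and was called in all 7 fits that left out a library. Its exons overlap *Gm55328* on the same strand and *Sh3pxd2a* on the other. Among 6 further target genes none could be tested: *Hes2*, *Hes3*, *Hes5* and *Helt* had 0 counts in every library, which allows up to 1.08 CPM over the WT and 0.554 CPM over the *Jag2sm* libraries, *Hes7* had 2 reads and *Hey2* had 1.

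**Figure D5:**
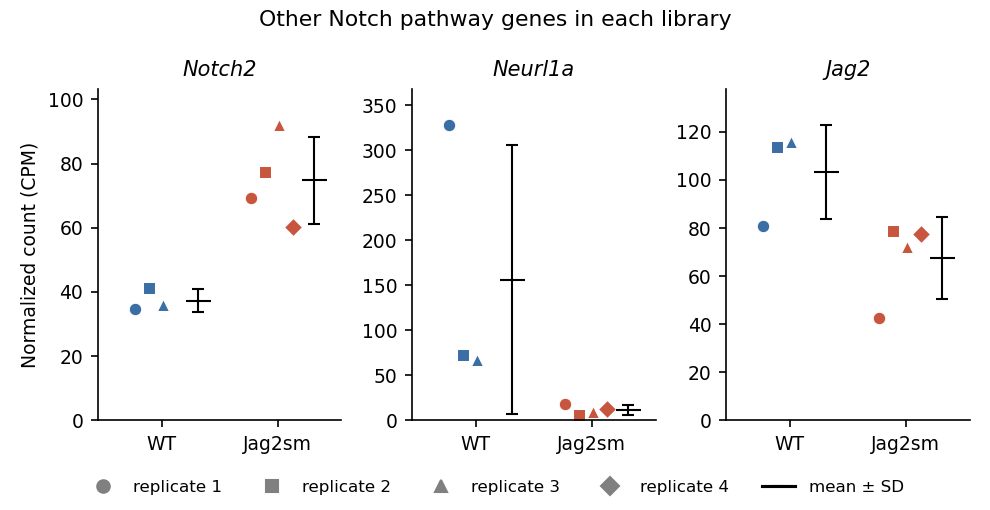
Normalized count (CPM, vertical axis, a separate scale from 0 for each gene) of *Notch2*, *Neurl1a* and *Jag2* in each WT (blue) and *Jag2sm* (red) library, with marker shapes for replicates and black bars for mean ± SD. *Notch2* is higher in all 4 *Jag2sm* libraries, and *Neurl1a* and *Jag2* are lower in all 4, with WT replicate 1 of *Neurl1a* at 328.6 CPM.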

How the data were processed

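RNA of 3 WT and 4 *Jag2sm* MuSC samples was read as nanopore direct cDNA. The authors aligned reads to GRCm39 with minimap2 2.17 (per the labels) and deposited raw counts per Ensembl gene from HTSeq for each library. The version of HTSeq, its strand setting and the annotation release are not given in the sources used here. The authors' own table of the comparison (mean normalized counts, log2 fold changes, p-values) was not used. The 5 summary entries of each file were kept out of the tests.

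Symbols and locations came from GENCODE M39 (GRCm39), which held 56017 of the identifiers. Counts were analysed with edgeR 4.0.16 in R 4.3.3: filterByExpr (minimum count 10, minimum total 15), TMM scaling, glmQLFit and glmQLFTest on all 7 libraries without covariates, two-sided, Benjamini-Hochberg adjustment over 9489 genes. CPM used TMM-scaled library sizes, and log2 CPM a prior count of 2. Depth was 187834 to 1937581 reads on genes. Permutation tests used SciPy 1.17.1, and the scripts were tested on simulated counts.

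The labels' batch number is shared by WT and *Jag2sm* replicates 1 to 3, and what a batch was is not stated. Batch 4 held *Jag2sm* replicate 4 alone, so with the replicate block that library did not enter the comparison of genotypes. Deviations of libraries with the same number from their genotype's mean correlated at 0.0740, 0.0144 and 0.0539 across genes, which are not independent replicates. These low values do not show that the libraries were paired. Alternatives were DESeq2 1.42.0, limma-voom (limma 3.58.1), DESeq2 size factors, library size alone, other filters, a replicate block, counts thinned to 187834 reads and each library left out. Full values are given for the targets, called members and members with 20 or more reads and no overlap, and the extremes of each role, the called genes of the other pathway lists and the top gene of each marker list are named. The members, lists and naming rule were chosen with earlier results of these data known.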

Additional observations from a re-analysis of the deposited data

Results flagged for a closer look

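A check for libraries far from the others (the gap of 1 library to its nearest neighbor against the range of the 4 *Jag2sm* libraries, above Dixon's 95% critical value) was applied to 24 named genes, and chance alone marks about 1 in 20 groups. *Hey1* stood apart in *Jag2sm* replicate 2, with 4.84 CPM from 7 reads and the next library at 1.97 CPM from 4 reads. *Nrarp* met the criterion in *Jag2sm* replicate 1, with 1.41 CPM from its single read and 0 in the other 3 libraries, which any gene with 1 read does by construction, so the chance rate does not cover it.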

How the results depend on the processing

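Of 289 values of 21 tested genes under 15 alternative settings, 270 kept their direction and side of the threshold, 5 lost the call and 14 changed sign. The 5 are all of *Notch2*: a log2 fold change of 1.10 (adjusted p = 0.0514) with the replicate block, and without WT replicates 2 and 3 and *Jag2sm* replicates 2 and 3 between 0.85 and 1.09. Beside these and the marker genes *Des* and *Mymx* and 4 interferon genes, no other call of a named gene was changed by the replicate block, under which 565 genes and 1 member were called. The changes of sign were small values in genes that were not called. *Maml1*, *Ncor1* and *Spen* were at 0.00025, 0.049 and 0.0083 with library size alone and at 0.010, 0.057 and 0.026 with at least 10 counts in every library. Over the fits without 1 library, *Maml1* ran from -0.39 to 0.13, *Ncor1* from -0.23 to 0.048 and *Spen* from -0.35 to 0.048, each highest without WT replicate 1. *Lfng* ran from -0.82 to 0.19 (highest without *Jag2sm* replicate 3, and 0.07 without WT replicate 2), *Mib1* from -0.35 to 0.034 (without WT replicate 2), *Mib2* from -0.61 to 0.014 (without *Jag2sm* replicate 3) and *Adam17* from -0.43 to 0.024 (without *Jag2sm* replicate 1). Tested members outside these 21 genes are not in this tally, and some of them changed sign over the fits without 1 library as well. *Ncstn* ran from -0.25 to 0.27, *Rfng* from -0.46 to 0.46 and *Dtx3* from -0.35 to 0.12. *Maml3* ran from -0.19 to 0.27 and *Ep300* from -0.18 to 0.20. The cause of the changes of sign was not tested.

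The number of genes called was 594 with the settings of the report, 1248 without the filter on low counts, where 2 members were called lower, 274 with at least 10 counts in every library and 264 after thinning, which both test fewer genes. Leaving out single libraries gave between 251 (without *Jag2sm* replicate 2) and 616 (without *Jag2sm* replicate 3), with 343 without WT replicate 2 and 341 without WT replicate 3. The number of members called lower stayed at 1 and of those called higher at 0 in all settings except the one without the filter. Depth limits the members most in WT replicate 1, where 1 read makes several CPM and only 32 members had a read.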
